A study of Mus musculus with 9 samples.

Results

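The genes described here write, keep, remove and read the methyl mark on DNA. They were named as a list of 10: Dnmt1, Uhrf1 and Uhrf2 for maintenance, Dnmt3a and Dnmt3b for new methylation, Tet1, Tet2 and Tet3 for removal, and Cbx5 and Cbx3 for heterochromatin. Each was found by its Ensembl identifier among the 55536 identifiers of the count table, and all 10 were among the 14684 genes with enough counts to be tested. The list was chosen by function with the CPM (counts scaled to library size) of its genes in EKO_exo, WT_exo and PBS known, so differences of its members are given as descriptions, with their standard errors and without p-values. Where a member is said to be called, it passed the threshold applied to all genes (adjusted p under 0.05), which describes where it stands in these data and is no independent test of it.

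RNA was sequenced from 9 cultures of helper (CD4+) T lymphocytes prepared from the spleen. The donor mice were wild-type males, 6 to 12 weeks old. Each culture was activated for 18 h by anti-CD3/anti-CD28 beads, which mimic antigen and costimulation, plus 5 ng/mL of murine IL-2, a T cell growth factor. In EKO_exo (n = 3) the cultures also received exosomes, small secreted vesicles, of BMDM (bone marrow-derived macrophages) from ApoE-deficient mice. In WT_exo (n = 3) the exosomes came from BMDM of wild-type mice, and in both exosome groups the dose was 2e+09 particles per mL. In PBS (n = 3) the cultures received phosphate-buffered saline and no exosomes. The T cells themselves were wild-type in all 3 groups. Whether the 3 replicates of a group came from different mice is not stated beyond the word biological, and p-values therefore cover the variation between cultures, which may be technical.

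DNA methylation in mammals sits mainly on cytosines of CpG dinucleotides. When DNA is replicated the new strand is unmethylated. UHRF1 binds the half-methylated CpG, ubiquitinates histone H3 and so recruits DNMT1, which copies the mark onto the new strand. DNMT3A and DNMT3B add methyl groups at new places, TET1, TET2 and TET3 oxidise 5-methylcytosine as a first step of its removal, and the HP1 proteins encoded by Cbx5 and Cbx3 bind methylated histone H3 in silent chromatin. In mouse T cells, these enzymes are known for their part in silencing and opening cytokine genes.

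Libraries held 25792975 to 32971791 counts, and the lowest count of any member in any library was 185, for Tet1. The 3 EKO_exo libraries stood apart from each other: replicate 3 on the first principal component of log2 CPM (61.6, other libraries -16.1 to -3.85), replicate 1 on the second and replicate 2 on the third. Between 19038 and 19518 genes had at least 1 count in EKO_exo, against 19989 to 20568 in the other 2 groups. Summed CPM of 5 CD4 T cell markers was 2130 to 2190 in EKO_exo, 1970 to 2030 in WT_exo and 1990 to 2080 in PBS, and 2 of the 5 (Cd3e and Cd247) were called higher in EKO_exo than in PBS. Summed CPM of 5 macrophage markers was 24.3 to 29.4 in EKO_exo, 22.2 to 29.3 in WT_exo and 19.0 to 29.3 in PBS. Among them Csf1r, with 2.39, 2.52 and 1.93 CPM in EKO_exo, 1.81, 1.47 and 0.789 CPM in WT_exo and 0.880, 0.648 and 1.08 CPM in PBS, was called higher in EKO_exo than in PBS, and Adgre1 had too few counts to be tested. Of 3 neutrophil markers, S100a9 was called lower in WT_exo than in PBS, with 0, 0 and 18 counts in EKO_exo, 0, 0 and 0 in WT_exo and 1, 18 and 21 in PBS. Summed CPM was 9.57 to 10.4 in EKO_exo, 8.31 to 10.2 in WT_exo and 11.2 to 12.3 in PBS for 2 CD8 T cell markers, and 4.53 to 7.11, 4.46 to 5.76 and 5.34 to 6.20 in EKO_exo, WT_exo and PBS for 5 B cell markers. For 4 dendritic cell markers it was 9.84 to 11.8 in EKO_exo, 9.38 to 12.7 in WT_exo and 10.5 to 12.1 in PBS, and for 2 NK cell markers at most 0.641 in any library, and no marker of these 4 lists was called. The 3 erythroid markers were listed at 0 in all libraries. Apoe itself, the gene lacking in the EKO_exo donors and intact in the T cells, was at 14.1 to 19.4 CPM over the 9 libraries and was not called in any comparison. The part of these differences between libraries in the results below was not tested, beyond refitting without single libraries.

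Dnmt1, the maintenance methyltransferase (ENSMUSG00000004099, chr9:20907209-20959888, minus strand), was the most abundant mRNA of the list per length. It had 774, 821 and 831 CPM in EKO_exo, 786, 810.2 and 786 CPM in WT_exo and 952, 960.1 and 961 CPM in PBS. Every library of either exosome group lay below every PBS library, and the PBS libraries lay closest together. The mean was 809 ± 30.6 CPM in EKO_exo, 794 ± 14.2 CPM in WT_exo and 958 ± 5.30 CPM in PBS (SD, n = 3 each), so that EKO_exo held 84.4% and WT_exo 82.9% of the PBS mean. On the log2 scale the fold change against PBS was -0.24 ± 0.029 (SE) in EKO_exo and -0.27 ± 0.029 in WT_exo. In these bulk cultures, fewer cells of a kind and less RNA per cell cannot be told apart, here and in all results that follow.

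Uhrf1, the partner that finds half-methylated CpG (ENSMUSG00000001228, chr17:56303321-56323486, plus strand), was also lower in both exosome groups. Its values were 314, 322 and 323 CPM in EKO_exo, 313, 316 and 308 CPM in WT_exo and 385, 397 and 381 CPM in PBS. Again no library of an exosome group reached the lowest PBS library. On the log2 scale it was at -0.28 ± 0.034 for EKO_exo against PBS and -0.31 ± 0.034 for WT_exo against PBS, which left 82.4% of the PBS mean in EKO_exo and 80.6% in WT_exo. The ratio of Dnmt1 to Uhrf1 CPM within a library stayed in a narrow band, 2.46, 2.55 and 2.57 in EKO_exo, 2.51, 2.56 and 2.55 in WT_exo and 2.47, 2.42 and 2.53 in PBS. These 3 sets of ratios overlapped.

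Uhrf2, the paralog of Uhrf1 (ENSMUSG00000024817, chr19:30030513-30093722, plus strand), which does not replace it in maintenance in mouse cells, was not called in either comparison. It had 88.3, 85.0 and 79.1 CPM in EKO_exo, 93.6, 91.7 and 85.4 CPM in WT_exo and 88.0, 85.7 and 82.8 CPM in PBS. The groups overlapped, and the log2 fold change against PBS was -0.02 ± 0.057 in EKO_exo and 0.08 ± 0.057 in WT_exo, with 95% intervals of -0.14 to 0.09 and -0.04 to 0.19. As a within-library ratio, Uhrf1 stood at 3.56, 3.78 and 4.08 times Uhrf2 CPM in EKO_exo, 3.34, 3.44 and 3.61 times in WT_exo and 4.38, 4.63 and 4.59 times in PBS. All exosome libraries lay below all PBS libraries in this ratio. It is a ratio of CPM, not of CPM per length.

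**Figure D1:**
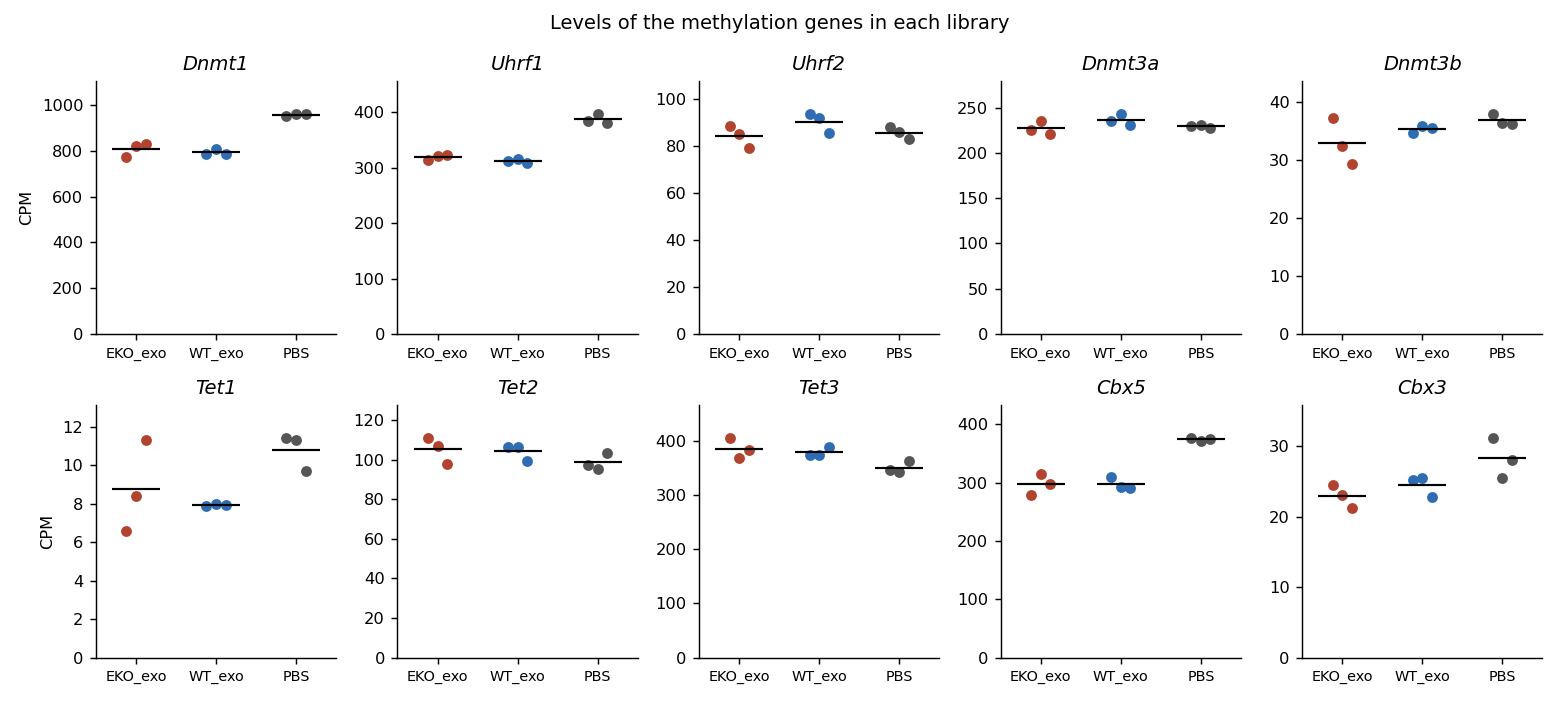
CPM of the 10 genes, 1 panel per gene, with each point 1 library and the line the mean of a group (n = 3); groups run from EKO_exo through WT_exo to PBS. Dnmt1, Uhrf1, Cbx5 and Cbx3 have all exosome libraries below all PBS libraries (closely for Cbx3, where 1 WT_exo library is just under the lowest PBS library), Tet3 has them above, and Uhrf2 and Dnmt3a overlap.

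Promoter windows of 3 of the 10 genes, Dnmt1, Uhrf1 and Cbx3, held an E2F-type motif. Of these Cbx3 was not called, and Cbx5, which was called lower, had no match in its windows. The motif, the site of the E2F factors that drive S phase genes, was searched as TTTCCCGC, TTTCGCGC, TTTGCCGC or TTTGGCGC on both strands. The windows ran from 250 bases before to 50 bases after each RefSeq start on GRCm38.p6. It occurred in 3 of the 17 windows of the 10 genes and in 2.87% of all 20148 windows of 16521 protein-coding genes. For comparison it occurred in 9 of 22 windows of the S phase list described below. The 3 matches upstream of a start are shown 5′ to 3′ on the strand of the gene, with the motif, or its reverse complement in Dnmt1, in capitals. They lie at chr9:20952825-20952852, chr17:56304118-56304145 and chr6:51470438-51470465, inside the annotated genes, with the Dnmt1 match overlapping an annotated Dnmt1 exon.
Dnmt1: gtttccgcgcGCGCGAAAaagccggggt
Uhrf1: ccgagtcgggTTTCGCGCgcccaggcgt
Cbx3: ggagccccgcTTTGGCGCgctccgagac

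The matches shown began 219 bases before the start for Dnmt1, 185 for Uhrf1 and 168 for Cbx3. A further Dnmt1 match, TTTGGCGC, began 33 bases after the same start. Dnmt1 has 3 RefSeq starts, and both of its matches belong to the one with 33 CpG in its window. The windows of the others hold 12 and 2 CpG. Uhrf1 has 2 starts, with 33 CpG in the window with the match and 12 in the other. Over all windows the lower quartile was 4 CpG, the median 14 and the upper quartile 25. The count table gives no promoter use, so which start the mRNA came from was not measured. A match is a string of letters and says nothing of binding in these cells.

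Dnmt3a, the main de novo methyltransferase of T cells (ENSMUSG00000020661, chr12:3806007-3914443, plus strand), overlapped between the groups. It had 225, 235 and 220.5 CPM in EKO_exo, 235, 243 and 230.3 CPM in WT_exo and 229, 231 and 228 CPM in PBS. The log2 fold change against PBS was -0.015 ± 0.038 in EKO_exo and 0.04 ± 0.038 in WT_exo, with 95% intervals of -0.09 to 0.06 and -0.04 to 0.12. Set against Dnmt1 within each library, Dnmt1 stood at 3.43, 3.50 and 3.77 times Dnmt3a CPM in EKO_exo, 3.35, 3.34 and 3.41 times in WT_exo and 4.15, 4.16 and 4.22 times in PBS. All exosome libraries had a lower ratio than all PBS libraries, in values that were known when the list was chosen.

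Dnmt3b, the second de novo enzyme (ENSMUSG00000027478, chr2:153649450-153687730, plus strand), was rarer. Its values were 37.1, 32.3 and 29.3 CPM in EKO_exo, 34.7, 35.7 and 35.4 CPM in WT_exo and 37.9, 36.4 and 36.2 CPM in PBS. The 3 WT_exo libraries lay just below the 3 PBS libraries, while EKO_exo ran from below to between them. Its log2 fold change was -0.16 ± 0.086 in EKO_exo and -0.06 ± 0.085 in WT_exo against PBS, and neither interval excluded 0 (-0.34 to 0.01 and -0.24 to 0.11). Of the mRNA counted for Dnmt1, Dnmt3a and Dnmt3b together, Dnmt1 made up 75.7 ± 1.12% in EKO_exo, 74.5 ± 0.162% in WT_exo and 78.3 ± 0.195% in PBS (SD, n = 3 each), as a share of CPM.

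Tet3, the most abundant of the Tet dioxygenases here (ENSMUSG00000034832, chr6:83362373-83459084, minus strand), lay above PBS in both exosome groups. It had 406, 368 and 383 CPM in EKO_exo, 375, 374 and 389 CPM in WT_exo and 347, 343 and 362 CPM in PBS. Every exosome library was above every PBS library, by a small margin in EKO_exo replicate 2. The log2 fold change was 0.14 ± 0.037 in EKO_exo, which held 110.0% of the PBS mean, and 0.11 ± 0.037 in WT_exo, which held 108%. The EKO_exo call was lost without EKO_exo replicate 1, where the estimate was lower (0.10 ± 0.037 log2). It was lost without PBS replicate 1 (0.13 ± 0.042) and without PBS replicate 2 (0.12 ± 0.0425), with a similar estimate and a larger standard error. It was also lost without EKO_exo replicates 1 and 3 together, at 0.07 ± 0.046. Tet3 in WT_exo, not called in the fit of all libraries, was called under 5 of 16 alternatives: without EKO_exo replicate 1 (0.11 ± 0.035), without EKO_exo replicates 1 and 3, with only the 2 groups compared, after keeping only genes averaging 5 CPM or more, and in DESeq2.

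Tet2, a gene often mutated in human T cell lymphomas (ENSMUSG00000040943, chr3:133463679-133545139, minus strand), was not separated by treatment. It had 111, 107 and 97.7 CPM in EKO_exo, 106, 106 and 99.2 CPM in WT_exo and 97.2, 95.1 and 103 CPM in PBS. Its log2 fold change against PBS was 0.09 ± 0.055 in EKO_exo and 0.08 ± 0.055 in WT_exo, with both intervals reaching below 0. Tet1 (ENSMUSG00000047146, chr10:62804570-62908996, minus strand) was the rarest of the list. It had 6.59, 8.41 and 11.3 CPM in EKO_exo, 7.89, 7.98 and 7.92 CPM in WT_exo and 11.4, 11.3 and 9.70 CPM in PBS, and EKO_exo replicate 3 reached the PBS range while replicates 1 and 2 did not. All 3 WT_exo libraries lay below all 3 PBS libraries. Tet1 was at -0.30 ± 0.163 log2 in EKO_exo and -0.45 ± 0.163 in WT_exo, and its standard error was the largest of the 10 genes. Counts of Tet1 were 185 to 341 per library, and its SD was 2.39 CPM in EKO_exo, 0.0448 CPM in WT_exo and 0.973 CPM in PBS.

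The 3 Tet mRNAs summed to 523, 484 and 492 CPM in EKO_exo, 489, 489 and 496 CPM in WT_exo and 455, 449.8 and 475 CPM in PBS. The exosome libraries were higher in this sum, of which Tet3 held, by CPM, 77.2 ± 0.892% in EKO_exo, 77.2 ± 1.05% in WT_exo and 76.2 ± 0.0993% in PBS. The ratio of Dnmt1 to Tet3 CPM was 1.91, 2.23 and 2.17 in EKO_exo, 2.10, 2.17 and 2.02 in WT_exo and 2.74, 2.80 and 2.66 in PBS. The highest exosome library, at 2.23, was under the lowest PBS library, at 2.66. This separation follows from those of Dnmt1 and Tet3 and adds nothing to them.

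**Figure D2:**
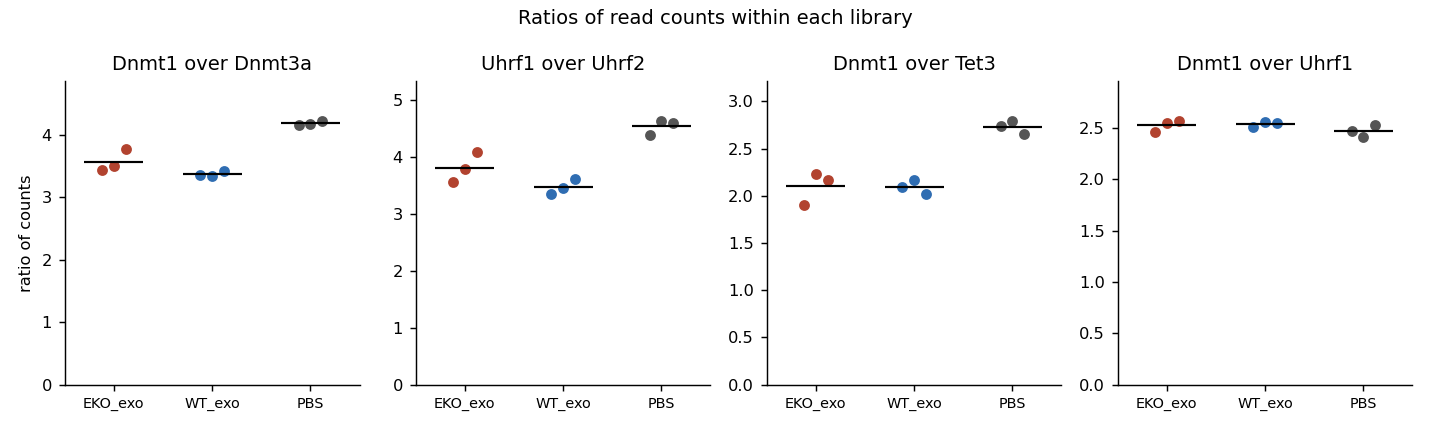
Ratios of read counts between pairs of the genes within each library, equal to the ratios of CPM, in 4 panels, with points for libraries and lines for group means (n = 3); groups run from EKO_exo through WT_exo to PBS. The ratios of Dnmt1 to Dnmt3a, of Uhrf1 to Uhrf2 and of Dnmt1 to Tet3 are lower in all 6 exosome libraries than in the 3 PBS libraries, and the ratio of Dnmt1 to Uhrf1 overlaps between groups.

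Cbx5 (ENSMUSG00000009575, chr15:103191544-103239816, minus strand) encodes HP1 alpha, a reader of methylated histone H3 at lysine 9. Of the 3 genes called lower, Cbx5 had the largest fall from PBS on the log2 scale. Its values were 278, 315 and 298 CPM in EKO_exo, 309, 292 and 291 CPM in WT_exo and 377, 370.5 and 375 CPM in PBS. The mean was 297 ± 18.3 CPM in EKO_exo, 297 ± 10.1 CPM in WT_exo and 374 ± 3.27 CPM in PBS, and all exosome libraries lay below all PBS libraries. The log2 fold change was -0.33 ± 0.040 in EKO_exo and -0.33 ± 0.040 in WT_exo. Without EKO_exo replicates 1 and 3 it was -0.25 ± 0.048 in EKO_exo, against PBS, and the call held.

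Cbx3, which encodes HP1 gamma (ENSMUSG00000029836, chr6:51470360-51483704, plus strand), was counted at a lower level. It had 24.5, 23.0 and 21.2 CPM in EKO_exo, 25.2, 25.5 and 22.7 CPM in WT_exo and 31.2, 25.5 and 28.1 CPM in PBS. The 3 EKO_exo libraries lay below the 3 PBS libraries, and the highest WT_exo library lay just under the lowest PBS library, both 25.5 CPM when rounded. Against PBS its log2 fold change was -0.30 ± 0.099 in EKO_exo and -0.21 ± 0.098 in WT_exo, and neither was called. Cbx1, which encodes the third HP1 protein and was on a companion list, had log2 fold changes of -0.05 ± 0.047 in EKO_exo and -0.08 ± 0.047 in WT_exo and was not called.

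Cbx5 and Hnrnpa1, which encodes an RNA-binding protein, start 545 bases apart on opposite strands, and Cbx3 and Hnrnpa2b1 start 722 bases apart. Of these neighbours Hnrnpa1 had 108, 112 and 101 CPM in EKO_exo, 97.0, 104 and 98.6 CPM in WT_exo and 108, 102 and 107 CPM in PBS, and Hnrnpa2b1 had 1527, 1481 and 1469 CPM in EKO_exo, 1500.5, 1478 and 1510.5 CPM in WT_exo and 1649.7, 1566 and 1525 CPM in PBS. Neither neighbour was called in any comparison. The ratio of Cbx5 to Hnrnpa1 CPM was 2.59, 2.80 and 2.94 in EKO_exo, 3.19, 2.81 and 2.95 in WT_exo and 3.48, 3.63 and 3.52 in PBS. All exosome libraries lay below all PBS libraries in that ratio. The 250 bases before the Cbx5 start, chr15:103239853-103240102 on the minus strand of GRCm38.p6, lie between the starts and are shown with CpG in capitals, beside the same stretch of Uhrf1, chr17:56304063-56304312 on the plus strand.
Cbx5: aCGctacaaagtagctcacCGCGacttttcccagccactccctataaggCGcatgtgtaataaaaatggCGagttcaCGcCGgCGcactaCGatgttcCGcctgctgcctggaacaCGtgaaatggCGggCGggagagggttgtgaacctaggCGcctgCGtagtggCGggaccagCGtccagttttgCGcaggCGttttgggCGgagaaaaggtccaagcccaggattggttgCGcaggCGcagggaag
Uhrf1: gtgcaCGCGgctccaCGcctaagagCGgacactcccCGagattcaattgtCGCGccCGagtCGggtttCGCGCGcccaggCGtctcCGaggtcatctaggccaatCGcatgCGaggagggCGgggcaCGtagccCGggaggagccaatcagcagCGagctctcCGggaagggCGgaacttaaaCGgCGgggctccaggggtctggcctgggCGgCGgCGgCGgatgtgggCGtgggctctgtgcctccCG

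The Cbx5 stretch holds 22 CpG and no E2F-type match, while the Uhrf1 stretch holds 30 CpG and the match shown earlier. Both lack an annotated exon. Of the 10 genes, Tet2 had the most CpG in its window (57) and the 3 windows of Dnmt3a held 46, 47 and 18. At least 1 window above the upper quartile was held by 8 of the 10 genes, called or not, and the exceptions were Tet1 (17 CpG) and Tet3 (22 CpG).

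Per length, the order of the 10 genes over all 9 libraries was Dnmt1 at 116 CPM per kb of exon, Uhrf1 at 79.8, Cbx5 at 35.8, Tet3 at 22.3, Dnmt3a at 13.9, Uhrf2 at 10.1, Dnmt3b at 6.85, Tet2 at 6.08, Cbx3 at 4.21 and Tet1 at 0.594. With the length of the longest transcript, Dnmt1, Uhrf1, Cbx5 and Tet3 kept the first 4 places at 145, 94.8, 36.7 and 34.1 CPM per kb. The order of several later neighbours then changed: Uhrf2 (24.5) came before Dnmt3a (23.8), and Tet2 (11.2) and Cbx3 (8.62) before Dnmt3b (8.10). Tet1 was last by either length, at 0.639 CPM per kb of longest transcript.

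**Figure D3:**
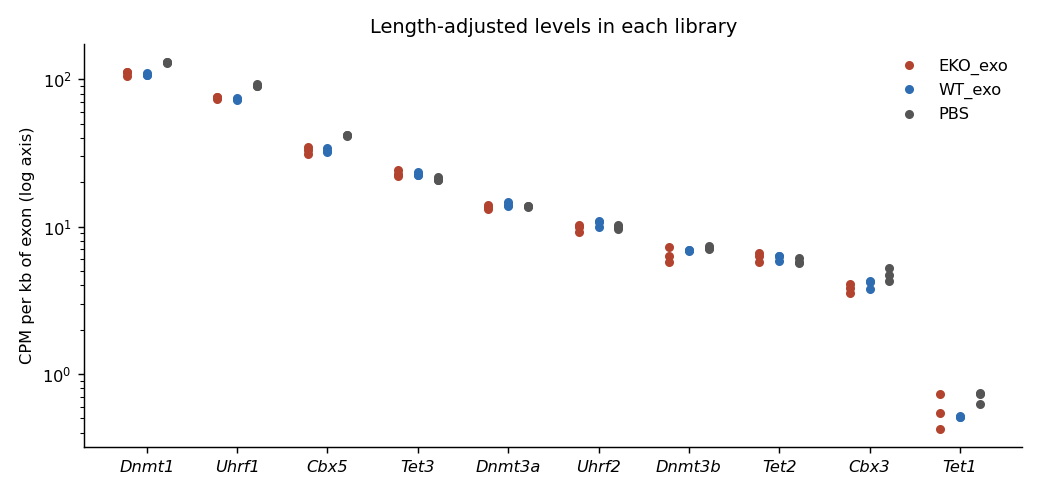
CPM per kb of merged exon length on a log axis for each of the 10 genes, with 1 point per library and groups in the order EKO_exo, WT_exo, PBS. Dnmt1 stands highest, followed by Uhrf1, Cbx5 and Tet3, Dnmt3b and Tet2 overlap, and Tet1 lies lowest with the widest scatter in EKO_exo.

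Some of these counts carry more doubt than others, since no source used here names the counting tool or says how shared and antisense reads were handled. Of the 50-base words of each gene's exons, 15.4% for Uhrf1, 9.81% for Dnmt3b and 8.67% for Cbx3 also occur in other annotated genes, and at most 0.761% for each of the other 7. For Uhrf1 those are the processed pseudogenes Gm5648 (4 to 22 counts per library) and Gm15953 (0 to 7), for Dnmt3b its close copy Dnmt3c (0 to 3), and for Cbx3 mainly its processed pseudogenes (0 to 8 counts summed). The antisense partners Dnmt3aos, Dnmt3bos and Gm42567, the last of Tet2, had at most 4 counts in any library. Few reads were assigned to the copies, and how many reads were dropped as shared was not measured.

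For EKO_exo against PBS, 3 of the 10 genes were called lower (Dnmt1, Uhrf1 and Cbx5) and 1 higher (Tet3), beside 2.87% of all 14684 genes called lower and 2.21% called higher (5.08% in either direction). Groups did not overlap for 4 genes on the lower side and 1 on the higher side, beside 10.6% and 9.94% of all genes. For WT_exo against PBS the same 3 genes were called lower and 0 higher, beside 3.14% and 1.83% of all genes (4.97% in either direction). Groups did not overlap for 6 genes on the lower side (Dnmt1, Uhrf1, Dnmt3b, Tet1, Cbx5 and Cbx3) and 1 on the higher side (Tet3), beside 11.6% and 10.6% of all genes. The median log2 fold change of the 10 genes was -0.20 in EKO_exo and -0.13 in WT_exo, where that of all genes was 0.00 in each. The list was made with these values known, so nothing is read from the shares. Both comparisons use the same 3 PBS libraries.

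Between the exosome groups the list showed no called difference. For EKO_exo against WT_exo the edgeR quasi-likelihood test called 0 of the 10 genes and 5 of all 14684 (0.0341%), with 0.00681% called lower and 0.0272% higher. At an unadjusted p under 0.05 it was also 0 of the 10, beside 7.08% of all genes. DESeq2 called 0 too, but gave no adjusted p for Dnmt3b, Tet1 and Cbx3 in this comparison. The log2 fold change of EKO_exo over WT_exo was 0.03 ± 0.029 for Dnmt1, 0.03 ± 0.034 for Uhrf1, -0.00 ± 0.040 for Cbx5 and 0.02 ± 0.037 for Tet3. Their 95% intervals, -0.03 to 0.09, -0.04 to 0.10, -0.08 to 0.08 and -0.05 to 0.10, bound the difference between exosomes of ApoE-deficient and wild-type donors, and a missed threshold does not show that the groups are alike. The widest intervals were those of Tet1 (-0.19 to 0.49) and Cbx3 (-0.30 to 0.11). Groups overlapped for all 10 genes, where 5.97% of all genes had every EKO_exo library below WT_exo and 5.88% above.

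**Figure D4:**
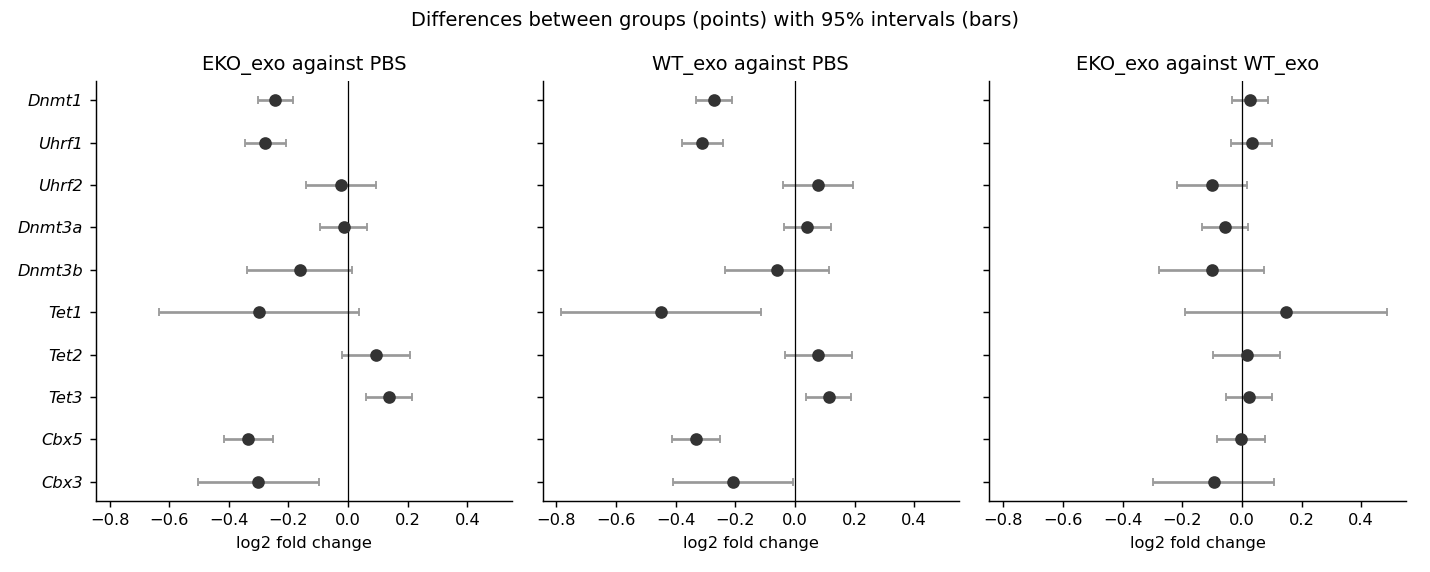
Log2 fold change of each of the 10 genes with its 95% interval, for EKO_exo against PBS, WT_exo against PBS and EKO_exo against WT_exo. Dnmt1, Uhrf1 and Cbx5 lie left of 0 in both comparisons with PBS, Tet3 lies right of it, and every interval of EKO_exo against WT_exo spans 0.

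The genes around these 10 in the same pathways were taken as 9 lists of 102 genes, 97 of them tested as part of all genes. These lists were also chosen with earlier results of these data known. Their counts and adjusted p-values, here and below, are therefore descriptions and no independent test of the lists. In EKO_exo against PBS 29 of the 97 fell and 1 rose, beside 5.08% of all genes called. In WT_exo against PBS 31 fell and 1 rose, beside 4.97%. Most came from a list of 24 S phase and proliferation genes, of which 22 fell in EKO_exo and 22 in WT_exo, with medians of -0.34 and -0.40 on the log2 scale. The other 73 tested genes supplied 7 falls and 1 rise in EKO_exo and 9 falls and 1 rise in WT_exo. In EKO_exo against WT_exo edgeR called 0 of the 97, and DESeq2 called 0 of those it gave an adjusted p. At an unadjusted edgeR p under 0.05 there were 8 of the 97, beside 7.08% of all genes.

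Among the partners of maintenance, 3 of 9 tested genes fell in EKO_exo and 4 of 9 in WT_exo. Pclaf, which encodes a PCNA-binding protein that helps recruit DNMT1 at replicating DNA, had 47.3, 48.3 and 47.1 CPM in EKO_exo, 46.5, 47.4 and 42.0 CPM in WT_exo and 78.1, 79.0 and 70.6 CPM in PBS. It was at -0.67 ± 0.068 log2 in EKO_exo (edgeR quasi-likelihood adjusted p = 3.34e-07) and -0.75 ± 0.068 in WT_exo (adjusted p = 4.73e-08), a larger fall than that of any of the 10 genes. Lig1, the ligase of Okazaki fragments whose methylated form binds UHRF1, was at -0.35 ± 0.044 in EKO_exo (edgeR adjusted p = 6.04e-06) and -0.40 ± 0.044 in WT_exo (5.6e-07). Hells, a chromatin remodeller needed for methylation of repeats, had 165, 188 and 197 CPM in EKO_exo, 196, 188 and 184 CPM in WT_exo and 234, 217 and 229 CPM in PBS. It fell by 0.31 ± 0.050 in EKO_exo and 0.26 ± 0.050 in WT_exo, with edgeR adjusted p of 0.000235 and 0.0012.

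Pcna, the sliding clamp on which DNMT1 docks, passed the test in WT_exo and not in EKO_exo. It had 222, 245 and 221 CPM in EKO_exo, 210.2, 216 and 216 CPM in WT_exo and 252, 259 and 235 CPM in PBS, and was at -0.11 ± 0.044 log2 in EKO_exo (edgeR adjusted p = 0.146) and -0.21 ± 0.044 in WT_exo (edgeR adjusted p = 0.00256). The direct comparison, 0.10 ± 0.044 for EKO_exo over WT_exo, was not called (edgeR adjusted p = 0.664). Usp7, the deubiquitinase that keeps UHRF1 and DNMT1 stable, was at 0.00 ± 0.036 in EKO_exo and -0.01 ± 0.036 in WT_exo and was not called in either group.

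Of the de novo partners 1 of 5 fell in each exosome group. It was Nsd2, a methyltransferase of histone H3 at lysine 36, with 183, 196 and 204 CPM in EKO_exo, 197, 200.4 and 192 CPM in WT_exo and 240.1, 227 and 227 CPM in PBS. It was at -0.25 ± 0.043 in EKO_exo (edgeR adjusted p = 0.000398) and -0.24 ± 0.043 in WT_exo (edgeR adjusted p = 0.000714). In the base excision list, of 15 tested genes, Parp1 fell and Gadd45b rose in each group. Parp1, which encodes a sensor of DNA breaks, was at -0.21 ± 0.035 in EKO_exo (edgeR adjusted p = 0.000449) and -0.20 ± 0.035 in WT_exo (0.000475). Gadd45b, a stress-response gene that in mouse neurons is linked to demethylation, had 85.0, 87.1 and 82.4 CPM in EKO_exo, 88.5, 81.7 and 84.3 CPM in WT_exo and 70.6, 72.2 and 62.7 CPM in PBS. It was at 0.31 ± 0.060 in EKO_exo (edgeR adjusted p = 0.00175) and 0.31 ± 0.060 in WT_exo (0.00153). All libraries of both exosome groups lay above PBS. Tdg, the glycosylase that removes the oxidised bases made by Tet enzymes, was at 0.01 ± 0.109 in EKO_exo and -0.11 ± 0.109 in WT_exo and was not called.

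The lists of Tet cofactors (8 tested) and methyl-CpG readers (9 tested) held no called gene in either comparison with PBS, with 2 and 1 genes at an unadjusted p under 0.05 in EKO_exo and 2 and 1 in WT_exo, where 17.1% and 15.8% of all genes were. Cxxc5, which encodes a CXXC domain protein, had the lowest estimates of the Tet cofactor list, -1.11 ± 0.428 in EKO_exo and -0.72 ± 0.418 in WT_exo, from 16 to 78 counts per library, and was not called. Idh1, which supplies 2-oxoglutarate, the cosubstrate of Tet enzymes, was at 0.08 ± 0.239 in EKO_exo and 0.34 ± 0.236 in WT_exo, where all 3 libraries lay above PBS, and was not called. The readers ran from -0.17 to 0.17 in EKO_exo and from -0.17 to 0.11 in WT_exo. Of 11 genes of the methyl donor cycle 0 were called in EKO_exo, with 1 at an unadjusted p under 0.05, and 1 in WT_exo: Ahcyl2, a relative of the hydrolase that clears the methyltransferase inhibitor S-adenosylhomocysteine, at -0.15 ± 0.041 (edgeR adjusted p = 0.0211). That call was lost without PBS replicate 2 (-0.16), PBS replicate 3 (-0.13), WT_exo replicate 1 (-0.13) or WT_exo replicate 3 (-0.16).

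Of 14 heterochromatin partners 2 fell in each exosome group, Chaf1a and Chaf1b, subunits of the chromatin assembly factor that loads histones behind the fork and binds HP1. Chaf1a had 139, 141 and 147 CPM in EKO_exo, 143, 142 and 139 CPM in WT_exo and 175, 169 and 166 CPM in PBS. It was at -0.26 ± 0.043 in EKO_exo (edgeR adjusted p = 0.000346) and -0.27 ± 0.043 in WT_exo (0.000181). Chaf1b was at -0.36 ± 0.063 in EKO_exo (edgeR adjusted p = 0.00059) and -0.37 ± 0.063 in WT_exo (0.000407). The EKO_exo call was lost without EKO_exo replicates 1 and 3 (-0.30 log2). The 12 other genes of this list, with the enzymes that methylate lysine 9 of histone H3 among them, were not called.

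In the S phase list every tested gene was below PBS in both exosome groups, from -0.61 to -0.16 on the log2 scale in EKO_exo and from -0.65 to -0.13 in WT_exo. Dnmt1 sat nearer to 0 than most of them: 16 of the 24 genes had a lower log2 fold change than Dnmt1 in EKO_exo and 15 in WT_exo. For Uhrf1 these counts were 15 and 14, and for Cbx5 12 and 14. Rrm1, a subunit of ribonucleotide reductase, had 289, 292 and 328 CPM in EKO_exo, 318, 302 and 304 CPM in WT_exo and 410.3, 399 and 388 CPM in PBS, or -0.40 ± 0.042 log2 in EKO_exo (edgeR adjusted p = 5.64e-07) and -0.37 ± 0.042 in WT_exo (9.13e-07). Ccna2, cyclin A2, was at -0.47 ± 0.066 in EKO_exo (edgeR adjusted p = 5.4e-05) and -0.65 ± 0.067 in WT_exo (2.62e-07). The proliferation genes Top2a, Mki67 and Rrm2 were at -0.61, -0.50 and -0.55 in EKO_exo and -0.60, -0.57 and -0.53 in WT_exo, each called. The part of this shift of the S phase list in the lower Dnmt1, Uhrf1 and Cbx5 was not tested.

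**Figure D5:**
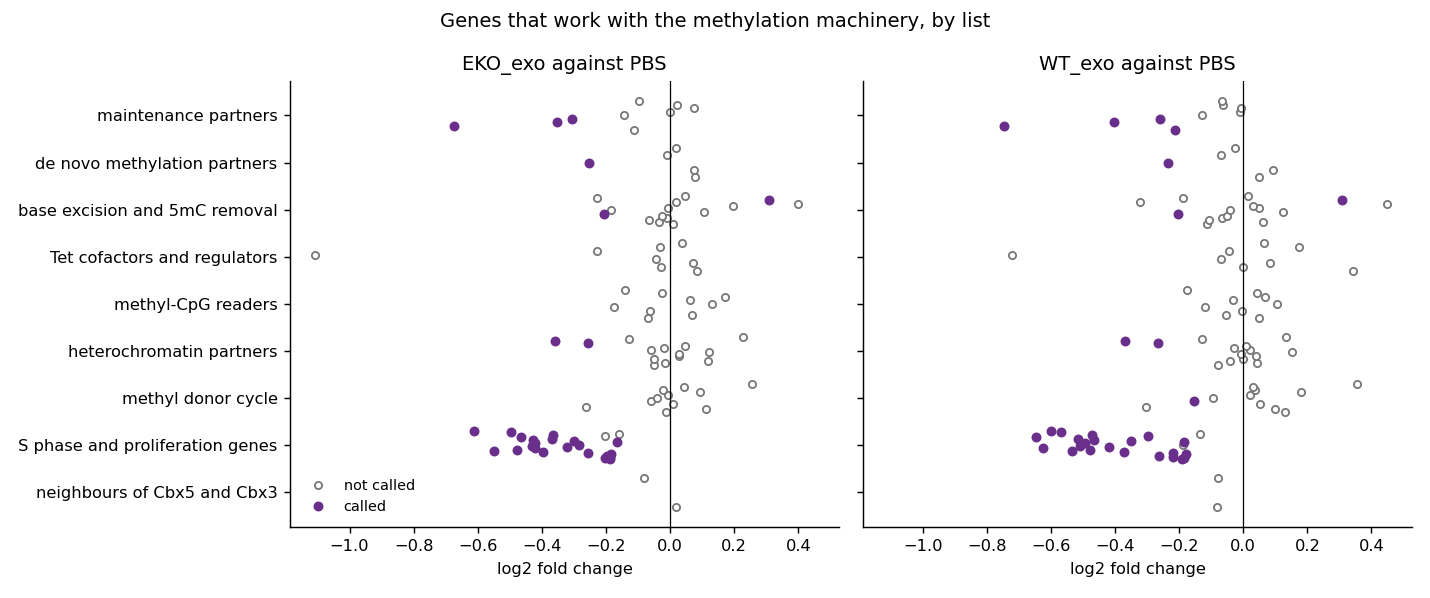
Log2 fold change of each tested companion gene against PBS, by list, with EKO_exo in the left panel and WT_exo in the right; each point is 1 gene, filled where it was called. The S phase and proliferation genes lie left of 0 throughout, the methyl-CpG readers scatter around 0, and the open point far left among the Tet cofactors is Cxxc5.

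The genes with the most similar profile were found by the root-mean-square difference of log2 CPM over the 9 libraries, each gene centred on its own mean, among 9235 genes of at least 5 CPM. For Dnmt1 they were Asns (0.0214), Snx5 (0.0236), Uhrf1 (0.0288), Chaf1a (0.0309) and Nsd2 (0.036). For Uhrf1 they were Asns (0.0281), Dnmt1 (0.0288), Atad2 (0.0301), Ncapd2 (0.032) and Exo1 (0.0324). Dnmt1 and Uhrf1 were thus each in the other's first 5. For Dnmt3a they were Ccni (0.019), Cmip (0.0218), Prkca (0.0231), Hdac7 (0.0232) and Hmga1 (0.0235), none of them shared with Dnmt1 or Uhrf1. The libraries are the same for all genes and share depth and composition, so this is a description of likeness.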

How the data were processed

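The authors deposited raw counts, whole numbers per gene. STAR 2.7.5c and GRCm38 are named in the submitters' processing notes. The sources used here do not name the counter, its strand setting or its annotation. Gene symbols came from GENCODE M21, on the same build (55450 of 55536 identifiers had a symbol). Counts of the 9 libraries (25792975 to 32971791) went through edgeR 4.0.16 under R 4.3.3: filterByExpr (minimum count 10, minimum total 15), TMM, 1 model with 3 groups, quasi-likelihood F test with 6 residual and 21.1 prior degrees of freedom. A call means an adjusted p under 0.05 (Benjamini-Hochberg, 14684 genes kept). CPM are relative to TMM-scaled library sizes. DESeq2 1.42.0 was an alternative. Named companions are the called genes of each list, at most the 4 with the smallest p per comparison; Cbx1, Usp7, Tdg, Cxxc5 and Idh1 and the neighbours Hnrnpa1 and Hnrnpa2b1 were named after their values were seen. Members and lists were chosen with earlier results of these data known. Chi-square per degree of freedom between replicates of a group was 5.15 to 9.32, so none looked like a duplicate. Scripts were tested on simulated data. Promoter windows came from RefSeq GRCm38.p6.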

Additional observations from a re-analysis of the deposited data

How the results depend on the processing

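Dnmt1, Uhrf1 and Cbx5 were called lower against PBS under all 16 alternatives in both exosome groups: DESeq2 size factors, no filter on low counts, a filter at a mean of 5 CPM, the DESeq2 Wald test, the replicate block, only the 2 groups compared, without EKO_exo replicates 1 and 3, and each of the 9 libraries left out. Their log2 fold changes in EKO_exo ranged from -0.26 to -0.21 for Dnmt1, -0.29 to -0.26 for Uhrf1 and -0.38 to -0.25 for Cbx5, and in WT_exo from -0.29 to -0.26, -0.33 to -0.29 and -0.36 to -0.32. No called value changed sign. Tet3 in EKO_exo was called in 12 of 16, at 0.07 to 0.17. Called members in WT_exo were 5 in place of 3 with only the 2 groups compared, Tet1 and Tet3 being added. Of all genes 1068 were then called in place of 730. Called members in WT_exo were 4 with the 5 CPM filter, with DESeq2 and without EKO_exo replicate 1, Tet3 being added. Of all genes 928, 986 and 870 were called in these settings. Cbx3 in EKO_exo was called with the 5 CPM filter and with DESeq2. Of all genes 1003 and 1097 were then called in EKO_exo, in place of 746.

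Over all genes, the count called in EKO_exo against PBS was 249 without EKO_exo replicates 1 and 3, against 746 with all libraries, and 375 to 687 with 1 library left out (375 without PBS replicate 2, 399 without PBS replicate 1). For WT_exo against PBS it was 730, and 399 to 870 with 1 library left out. It was lowest without PBS replicate 2 (399) or 1 (410), and at most 441 without any 1 WT_exo replicate. Among the 16 alternatives the highest count was 1097 for EKO_exo against PBS, with DESeq2. For WT_exo against PBS the highest was 1068, with only the 2 groups compared. For EKO_exo against WT_exo the 5 calls became 28 without a filter, 9 with the 5 CPM filter, 32 with DESeq2, 1 with the replicate block, 0 without EKO_exo replicates 1 and 3, and 0 to 6 with 1 library left out (1 without EKO_exo replicate 2 or WT_exo replicate 1 or 3, 0 without WT_exo replicate 2). The cause was not tested. Companion counts ran from 20 to 34 in EKO_exo and 29 to 37 in WT_exo. Deviations from the group mean had correlations of -0.07 to 0.02 over 9 same-numbered pairs and -0.09 to 0.14 over 18 differently numbered pairs. No shared deviation was seen, but with 3 libraries a group this cannot show whether same-numbered cultures had a common mouse or preparation. With the replicate block, 614, 609 and 1 of all genes were called in EKO_exo against PBS, WT_exo against PBS and EKO_exo against WT_exo. In the same order the counts were 30, 32 and 0 for companions and 4, 3 and 0 for members. With 3 libraries a group, Tet1 (185 to 341 counts) and Cbx3 have the widest intervals.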
